A study of Rattus norvegicus with 10 samples.

Results

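The choroid plexus is the epithelial tissue of the brain ventricles that secretes the cerebrospinal fluid (CSF), and the genes described here encode the junctions that hold its epithelial cells together. A list of 9 junction and adhesion genes (CLDN1, CLDN2, CLDN3, CLDN5, OCLN, TJP1, F11R, CDH1 and CTNNB1) was matched by gene symbol to the study's table of transcribed genes, which links symbols to Ensembl identifiers. The copy of that table used here is shortened to 1997 identifiers, those with the highest values. It holds 4 of the 9 genes, CLDN1, CLDN2, OCLN and CTNNB1, out of 32883 genes in the deposited files, and the other 5 genes were not analysed here.

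RNA was sequenced from the choroid plexus of the lateral and 4th ventricles of 10 female Wistar rats, with 1 library per rat and no pooling of animals. From an age of 6 weeks, 5 rats were fed a nutrient source-matched control diet with 10% of the energy from fat, and 5 rats were fed a high fat diet (HFD) with 60% of the energy from fat. The diets lasted for 21 weeks and the rats were 27 weeks old at sampling. The study picked experimental animals by body weight, lighter rats from the control diet and heavier rats from the HFD, so that diet and weight cannot be told apart. The question for these genes was whether the transcripts of the barrier differed between HFD-fed and control rats.

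The capillaries of the choroid plexus are leaky, and the barrier between blood and CSF is formed by tight junctions between the epithelial cells. Claudins are membrane proteins that form the strands of the tight junction. Some claudins, such as claudin-1 (CLDN1), seal the space between cells, whereas claudin-2 (CLDN2) forms pores for small cations and water and is typical of leaky, fluid-transporting epithelia. Occludin (OCLN) is a further membrane protein of the tight junction. β-catenin (CTNNB1) binds the tail of cadherins in the adherens junction, which lies below the tight junction, and is also the effector of Wnt signalling in the nucleus.

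The values are TPM, the share of a gene among all transcripts of a library after division by its length, so that levels of different genes can be compared. The number of reads behind each library cannot be read from TPM, and the error given is the spread between rats. A factor per rat, taken from genes detected in all rats, was divided out, and the result is called rescaled TPM. The division moved 1 library the most. Control rat 1 had a factor of 0.761, against 0.933 to 1.11 in the other 9 rats. In this rat the carrier protein transthyretin (TTR) took 39.7% of all TPM, against 32.2% to 38.2% in the others. Even after rescaling, 1839 of its genes deviated more than 2-fold from the rest, while the same count ran from 140 to 195 for the 9 remaining libraries. The main results are therefore also given without control rat 1 and with TPM as deposited. Rescaling also changed the values of the other rats. Over the HFD-fed rats, the SD of CLDN2 was 71.5 TPM as deposited and 38.4 after rescaling (n = 5). That of CLDN1 was 10.03 as deposited and 17.4 after rescaling (n = 5). In RNA from whole tissue, fewer cells of a type and less RNA per cell cannot be told apart.

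The tissue label was checked against 12 markers of choroid plexus epithelium, all of which were named and present in every rat. TTR had 364200 ± 88470 rescaled TPM (SD, n = 5) in control rats and 339500 ± 53810 (SD, n = 5) in HFD-fed rats. Of the other 11 markers, ENPP2, which encodes the secreted enzyme autotaxin, was the most abundant. Their summed level was 6661 rescaled TPM in control rat 1 and 8629 to 9643 in the other 9 rats. Control rat 1 lay below the mean of the other control rats for 7 of the 12 markers and above it for 5, from 49.0% of that mean for the prolactin receptor PRLR, named after its values were seen, to 161% for TTR. Of the 12 markers, 1 had no overlap between the diets, against 3.4% of all genes and 7.25% of the named genes. It was KL, which encodes klotho, a protein of the choroid plexus and kidney, and was named after its values were seen. KL had 268, 418, 404, 382 and 414 rescaled TPM in control rats 1 to 5 and 426, 450, 469, 456 and 471 in HFD-fed rats 1 to 5. All HFD-fed rats were above all control rats, also with control rat 1 left out. The log2 fold change of KL was 0.29 (two-sided exact permutation p = 0.00794, the smallest this design allows), with an adjusted p of 0.55 by limma, and 0.17 without control rat 1. Over the 12 markers, 7 had a higher and 5 a lower mean log2 value in HFD-fed rats. With control rat 1 left out, the water channel AQP1, also named after its values were seen, had a lower mean in HFD-fed rats. Its log2 fold change was -0.18 (two-sided exact permutation p = 0.0476), with an adjusted p of 0.367 by limma. In that fit, 11.8% of all genes had an unadjusted p under 0.05. Over all rats, the log2 fold change of AQP1 was -0.035, and it was 0.054 with TPM as deposited.

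CLDN2 was the most abundant of the 4 junction genes and ranked 147 of all genes by mean rescaled TPM (ENSRNOG00000054495). In control rats 1 to 5 it had 543, 650, 636, 625 and 650 rescaled TPM, and in HFD-fed rats 1 to 5 it had 607, 639, 690, 698 and 679. Control rat 1 was the lowest of all rats, 3 HFD-fed rats were above every control rat, and the diets overlapped. The means were 621 ± 44.5 in control rats and 663 ± 38.4 in HFD-fed rats (SD, n = 5 each). The log2 fold change from control to HFD was 0.095 (95% interval -0.06 to 0.25), a difference within the spread between rats (two-sided exact permutation p = 0.159). Without control rat 1, the control mean was 640 ± 12.0 (SD, n = 4), and the log2 fold change was 0.048 (95% interval -0.07 to 0.16).

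CLDN1 ranked 780 (ENSRNOG00000001926). It had 96.9, 140, 115, 120 and 130 rescaled TPM in control rats 1 to 5, and 109, 148, 146, 118 and 125 in HFD-fed rats 1 to 5. HFD-fed rats 2 and 3 were above every control rat, while HFD-fed rat 1 was below 4 of the 5 control rats. The means of 120 ± 16.2 and 129 ± 17.4 (SD, n = 5 each) differed by a log2 fold change of 0.10 (95% interval -0.16 to 0.36; two-sided exact permutation p = 0.437). Without control rat 1 the control mean was 126 ± 10.99 (SD, n = 4), close to that of the HFD-fed rats, and the log2 fold change was 0.025 (95% interval -0.20 to 0.25).

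OCLN was the least abundant of the 4 genes and ranked 1598 (ENSRNOG00000018297). The control rats fell into higher and lower values, with 64.9 and 62.2 rescaled TPM in rats 2 and 3 and with 48.3, 50.9 and 49.5 in rats 1, 4 and 5. HFD-fed rats 1 to 5 had 57.3, 75.7, 61.4, 64.3 and 56.3. All 5 HFD-fed rats were above the control mean and the control median, and 1 of them was above every control rat. The means were 55.2 ± 7.77 and 63.0 ± 7.83 (SD, n = 5 each), with a log2 fold change of 0.19 (95% interval -0.05 to 0.44; two-sided exact permutation p = 0.135). Leaving out control rat 1 gave a log2 fold change of 0.15 (95% interval -0.09 to 0.39). The unadjusted p of OCLN by limma was 0.109 over all rats. It was under 0.05 in 2 of 20 alternatives, with the replicate block (0.0298) and without control rat 2 (0.0418). In these 2 fits, 9.24% and 9.06% of all genes had an unadjusted p under 0.05. The lowest adjusted p of OCLN in any alternative was 0.413.

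CTNNB1 ranked 1015 (ENSRNOG00000054172) and set control rat 1 furthest apart from the other rats. This rat had 57.7 rescaled TPM, while control rats 2 to 5 had 94.8, 88.2, 97.6 and 103. HFD-fed rats 1 to 5 had 105, 104, 97.1, 99.3 and 95.1, so that the HFD-fed rats varied little among themselves. The means of 88.2 ± 17.9 in control rats and 100 ± 4.27 in HFD-fed rats (SD, n = 5 each) gave a log2 fold change of 0.21 (95% interval -0.10 to 0.52; two-sided exact permutation p = 0.127). Without control rat 1, the control mean was 95.9 ± 6.09 (SD, n = 4) and the log2 fold change 0.063 (95% interval -0.06 to 0.18).

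**Figure D1:**
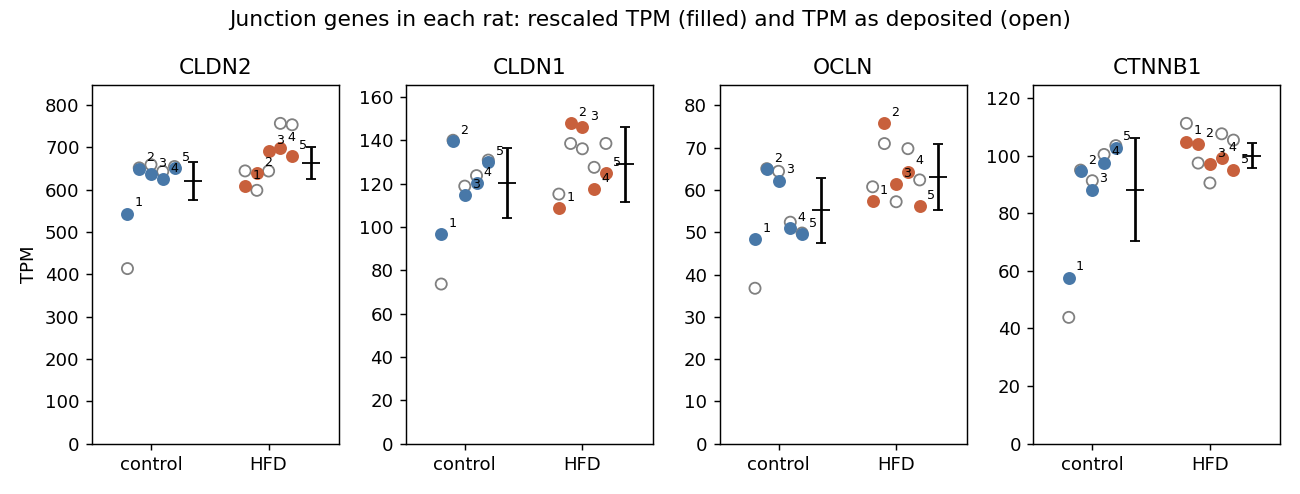
TPM of CLDN2, CLDN1, OCLN and CTNNB1 in each rat, with control rats in blue and HFD-fed rats in orange, the rat number beside each filled point, rescaled TPM as filled points, TPM as deposited as open points, and black bars for the mean and SD of rescaled TPM over 5 rats. Control rat 1 is the lowest rat for each of the 4 genes, most clearly for CTNNB1, at 57.7 against 88.2 to 105 in the other rats, and the diets overlap in every panel.

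None of the 4 genes passed the test across all genes. In the limma fit over 12219 genes, their adjusted p (Benjamini-Hochberg) was 0.602 for CLDN2, 0.702 for CLDN1, 0.579 for OCLN and 0.592 for CTNNB1, and their unadjusted p lay between 0.109 and 0.405. Over all genes, 0 had an adjusted p under 0.05 (0%), and 1036 had an unadjusted p under 0.05 (8.48%), as had 0 of the 4 junction genes. The study's own test, DESeq2 on raw counts, did call genes at an adjusted p under 0.05, so that the 0 holds only for limma on these TPM. Without control rat 1, 11.8% of all genes had an unadjusted p under 0.05 (0% adjusted), and with TPM as deposited 5.11%, again with 0 of the 4 junction genes in either. The diets did not overlap for 3.4% of all genes, for 4.94% without control rat 1 and for 0 of the 4 junction genes in both. All 4 genes had a higher mean in HFD-fed rats, as had 55.5% of all genes tested and 32.8% of the 2001 genes that could be named, and their median log2 fold change was 0.15, against 0.027 over all genes. Over 9 rats these medians were 0.055 and 0.008, and 52.5% of all genes and 28.5% of the named genes were higher. With TPM as deposited they were 0.24 and 0.12, and 73% of all genes tested were then higher in HFD-fed rats. Before rescaling, most genes in the table thus had the same direction as the 4 junction genes. The widest interval after rescaling, that of CTNNB1, ended at 0.52 on the log2 scale.

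**Figure D2:**
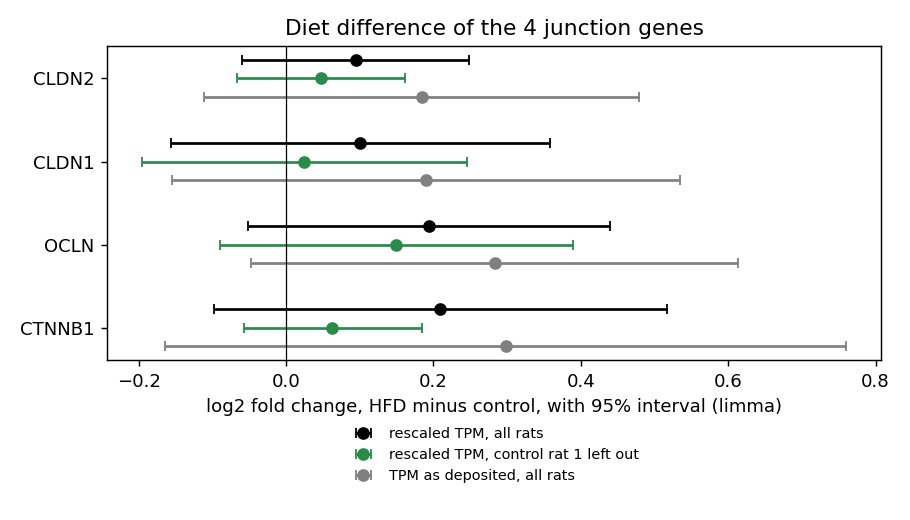
Log2 fold change from control to HFD of the 4 junction genes with the 95% interval from limma, for rescaled TPM in all 10 rats (black), rescaled TPM with control rat 1 left out (green) and TPM as deposited in all rats (grey). All intervals contain 0, and for each gene the estimate is smallest with control rat 1 left out, from 0.025 for CLDN1 to 0.15 for OCLN.

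The 4 genes kept the same order in each of the 10 rats. CLDN2 was above CLDN1 by a factor of 5.20 ± 0.513 (SD, n = 10), and the lowest CLDN2 value of any rat, 543, was far above the highest CLDN1 value, 148. CLDN1 was above CTNNB1 by a factor of 1.34 ± 0.184 and CTNNB1 above OCLN by 1.61 ± 0.271 (SD, n = 10 each). The ranges of these neighbours overlapped between rats, as the highest CTNNB1 value, 105, exceeded the lowest CLDN1 value, 96.9. A ratio of 2 genes within a rat does not depend on how the rats are scaled. The ratio of the pore-forming CLDN2 to the sealing CLDN1 was 5.20 ± 0.396 in control rats and 5.20 ± 0.659 in HFD-fed rats (SD, n = 5 each), with a difference on the log2 scale of -0.006 (two-sided exact permutation p = 0.921). The ratio of CLDN2 to CTNNB1 was 7.24 ± 1.27 in control rats, with a value of 9.43 in control rat 1 and a range from 6.32 to 7.21 for control rats 2 to 5, and 6.64 ± 0.632 in HFD-fed rats (SD, n = 5 each). Across the 6 ratios among the 4 genes, which were compared after the values had been seen, the exact permutation p ran from 0.413 to 0.921, without adjustment.

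Whether the 4 genes varied together from rat to rat was examined with values on the log2 scale. Over 10 rats, with values centred within each diet, Pearson's r between 2 of the 4 genes was positive for all 6 pairs, from 0.298 for OCLN with CTNNB1 to 0.651 for CLDN2 with CTNNB1. Spearman's rho for these pairs was 0.285 (permutation p = 0.455) and 0.261 (permutation p = 0.474), and the permutation p of r was 0.641 and 0.182. After adjustment over the 6 pairs, the smallest permutation p was 0.262 for r and 0.474 for rho. Leaving out the 2 rats farthest from the median of the first gene, control rat 1 and HFD-fed rat 1, took r for CLDN2 with CTNNB1 to 0.013. Without control rat 1, that r was -0.437 (permutation p = 0.176, n = 9), and the r of the other 5 pairs ran from -0.25 to 0.44. With TPM as deposited, where control rat 1 lies further below the other rats, r was higher for all 6 pairs, from 0.726 for CLDN2 with OCLN to 0.905 for CLDN2 with CTNNB1. The permutation p of the latter was 0.0461, and 0.152 after adjustment over the 6 pairs. Without the 2 rats farthest from the median, the r as deposited ran from 0.065 to 0.577.

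Other junction and adhesion genes were taken from lists of tight junction, polarity, adherens junction, desmosome, gap junction, cortical actin, integrin, tetraspanin and β-catenin genes. Of 193 symbols in these lists, 39 could be named through the study's tables, the 4 genes above among them, and all 39 were tested. Of these, LAMC1 was named only through the study's table of genes that differed between the diets, so its difference is not independent evidence. No desmosome or gap junction gene was named. An unadjusted p under 0.05 by limma was found for 6 of the 39 genes, 2 higher and 4 lower in HFD-fed rats. Of all genes, 4.23% were higher and 4.25% lower by this measure, and 13.6% of the 2001 named genes were either, while 0 of the 39 had an adjusted p under 0.05. The median log2 fold change was 0.025 over the 39 genes, 0.027 over all genes and -0.07 over the named genes, which are mostly abundant. The diets did not overlap for 0 of the 39 genes, for 3.4% of all genes and for 7.25% of the named genes. When control rat 1 was left out, the number was again 6, and all 6 genes were shared, where 5.98% of all genes were higher and 5.8% lower and 19.04% of the named genes were either. It was 2 (5.13%) without HFD-fed rat 4, both shared, against 6.56% of all genes, and 3 (7.69%) without HFD-fed rat 2, of which 2 were shared, against 7.74% of all genes. With TPM as deposited it was 4, of which 3 were shared, with 3 higher and 1 lower (3.85% of all genes higher, 1.26% lower). The balance of directions thus depended on the rescaling. Of the 39 genes, 21 had a higher and 18 a lower mean after rescaling, and 30 and 9 as deposited. With TPM as deposited the diets did not overlap for 1 of the 39 genes, ACTG1, and for 1.65% of all genes.

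Among the tight junction genes, JAM3, an adhesion molecule of the immunoglobulin family, had 142 ± 14.7 rescaled TPM in control rats and 154 ± 3.25 in HFD-fed rats (SD, n = 5 each). Its log2 fold change of 0.12 was 0.067 without control rat 1, and both were within the spread between rats. CGNL1 encodes paracingulin, which ties junctions to the cytoskeleton, and had 101 ± 14.0 and 97.9 ± 7.96 (SD, n = 5 each). Its log2 fold change of -0.04 turned to 0.014 without control rat 1 and to 0.05 with TPM as deposited. Next to CTNNB1 in the adherens junction, α-catenin (CTNNA1), which joins the cadherin and catenin complex to actin, had 76.7 ± 5.30 and 76.2 ± 1.64 (SD, n = 5 each), with a log2 fold change of -0.007 that was 0.082 with TPM as deposited. Control rat 1 was the highest of all rats for CTNNA1, at 86.0, and the lowest for CTNNB1.

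CRB3 encodes the membrane anchor of the Crumbs complex, which marks the apical side of epithelial cells. It had 145, 153, 136, 139 and 128 rescaled TPM in control rats 1 to 5, and 111, 112, 130, 129 and 124 in HFD-fed rats 1 to 5. All HFD-fed rats were below 4 of the 5 control rats, but 2 of them were slightly above control rat 5. The means were 140 ± 9.49 and 121 ± 8.96 (SD, n = 5 each), with a log2 fold change of -0.21 (two-sided exact permutation p = 0.0238) and an adjusted p of 0.542 by limma. The value was -0.20 without control rat 1, and -0.13 with TPM as deposited, where the unadjusted p by limma was 0.282. CDC42, a small GTPase of the polarity complexes, had 284 ± 37.7 and 293 ± 10.7 (SD, n = 5 each), with a log2 fold change of 0.059 that was -0.03 without control rat 1. CDC42 was at 219 in control rat 1 and at 289 to 317 in the other control rats.

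Both cytoplasmic actins, which form the belt below the junctions, were among the 6 genes. ACTG1 had 133, 240, 204, 212 and 215 rescaled TPM in control rats 1 to 5, and 235, 341, 271, 279 and 225 in HFD-fed rats 1 to 5. Control rat 1 was the lowest and HFD-fed rat 2 the highest, and the other rats of both diets overlapped. The log2 fold change was 0.44 (two-sided exact permutation p = 0.0238) and 0.30 without control rat 1. ACTB had 354 ± 16.1 in control rats and 401 ± 34.6 in HFD-fed rats (SD, n = 5 each), with HFD-fed rat 2 again the highest, at 450. Its log2 fold change was 0.18 (two-sided exact permutation p = 0.0238), and its unadjusted p by limma was above 0.05 in 6 of 20 alternatives, from 0.0562 with the replicate block to 0.068 without control rat 3, and also with upper-quartile scaling and without control rat 4, HFD-fed rat 2 or HFD-fed rat 4. The unadjusted p of ACTG1 was above 0.05 in 1 alternative, at 0.0547 without HFD-fed rat 2. Both genes are close in sequence, so that reads can be shared between them. Their adjusted p by limma was 0.542 for ACTG1 and 0.543 for ACTB.

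Of the proteins that tie actin to the membrane, ezrin (EZR) had 404 ± 20.6 in control rats and 403 ± 23.8 in HFD-fed rats (SD, n = 5 each). SLC9A3R1, which encodes a scaffold that binds ezrin, had 66.8 ± 5.16 and 58.9 ± 3.81 (SD, n = 5 each). The log2 fold change was -0.18 (two-sided exact permutation p = 0.0159), with an adjusted p of 0.546 by limma, and -0.14 without control rat 1. With TPM as deposited it was -0.089 (two-sided exact permutation p = 0.262). The unadjusted p by limma was above 0.05 in 7 of 20 alternatives: with TPM as deposited, with or without control rat 1, with the replicate block (0.0658), and without control rat 4 or HFD-fed rat 1, 2 or 4. In control rats it ran from 62.3 to 74.7 and in HFD-fed rats from 52.9 to 63.3, so that the diets overlapped at the edge. The most abundant gene of this group was the myosin light chain MYL6, with 1048 ± 60.6 and 969 ± 85.0 (SD, n = 5 each; two-sided exact permutation p = 0.143). Over the 17 cortical actin genes, 9 had a higher and 8 a lower mean in HFD-fed rats, with a median log2 fold change of 0.019. Before rescaling, 14 were higher and 3 lower, with a median of 0.108. The share with a higher mean over all genes was 55.5% after rescaling and 73% as deposited.

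The other 2 genes with an unadjusted p under 0.05 came from the list of tetraspanins and other adhesion molecules. CD99 had 249.3, 159, 139, 161 and 156 rescaled TPM in control rats 1 to 5, and 151, 133, 131, 118 and 120 in HFD-fed rats 1 to 5. Control rat 1 was far above the others, and HFD-fed rat 1 was above control rat 3. The log2 fold change was -0.38 (two-sided exact permutation p = 0.0159) and -0.24 without control rat 1. IGSF1, a membrane protein with immunoglobulin domains, had 71.0 ± 6.49 and 60.2 ± 8.15 (SD, n = 5 each). Its log2 fold change was -0.24 (two-sided exact permutation p = 0.0476), and -0.26 without control rat 1. With TPM as deposited it was -0.154 (two-sided exact permutation p = 0.365). The unadjusted p of IGSF1 by limma was above 0.05 in 8 of 20 alternatives: with TPM as deposited, with or without control rat 1, and without control rat 2 or 5 or HFD-fed rat 1, 2, 3 or 4. That of CD99 was above 0.05 without HFD-fed rat 4 (0.0542) or HFD-fed rat 5 (0.052). In HFD-fed rat 5, IGSF1 was at 74.4, against 53.7 to 57.9 in the other HFD-fed rats. The adjusted p by limma was 0.542 for CD99 and 0.546 for IGSF1. The 2 most abundant of the 7 genes in this list, CD63 and CD81, had means of 1307 ± 185 and 964 ± 25.2 in control rats and of 1177 ± 121 and 963 ± 104 in HFD-fed rats (SD, n = 5 each).

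Among the 4 integrin and basement membrane genes, the integrin subunit ITGB5 had 84.5 ± 10.9 in control rats and 85.8 ± 5.37 in HFD-fed rats (SD, n = 5 each). For the integrin subunit ITGB8, control rat 1 decided the difference between the diets. It was at 8.31 rescaled TPM in control rat 1, at 67.8 to 80.4 in the other control rats and at 66.0 to 88.4 in HFD-fed rats, and its log2 fold change of 0.71 became 0.082 without that rat. CSNK1A1, a kinase that marks β-catenin for degradation and the only gene named from the β-catenin list, was at 43.6 in control rat 1 and at 87.2 to 99.7 in the other 9 rats. Its log2 fold change of 0.23 became 0.014 without control rat 1.

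**Figure D3:**
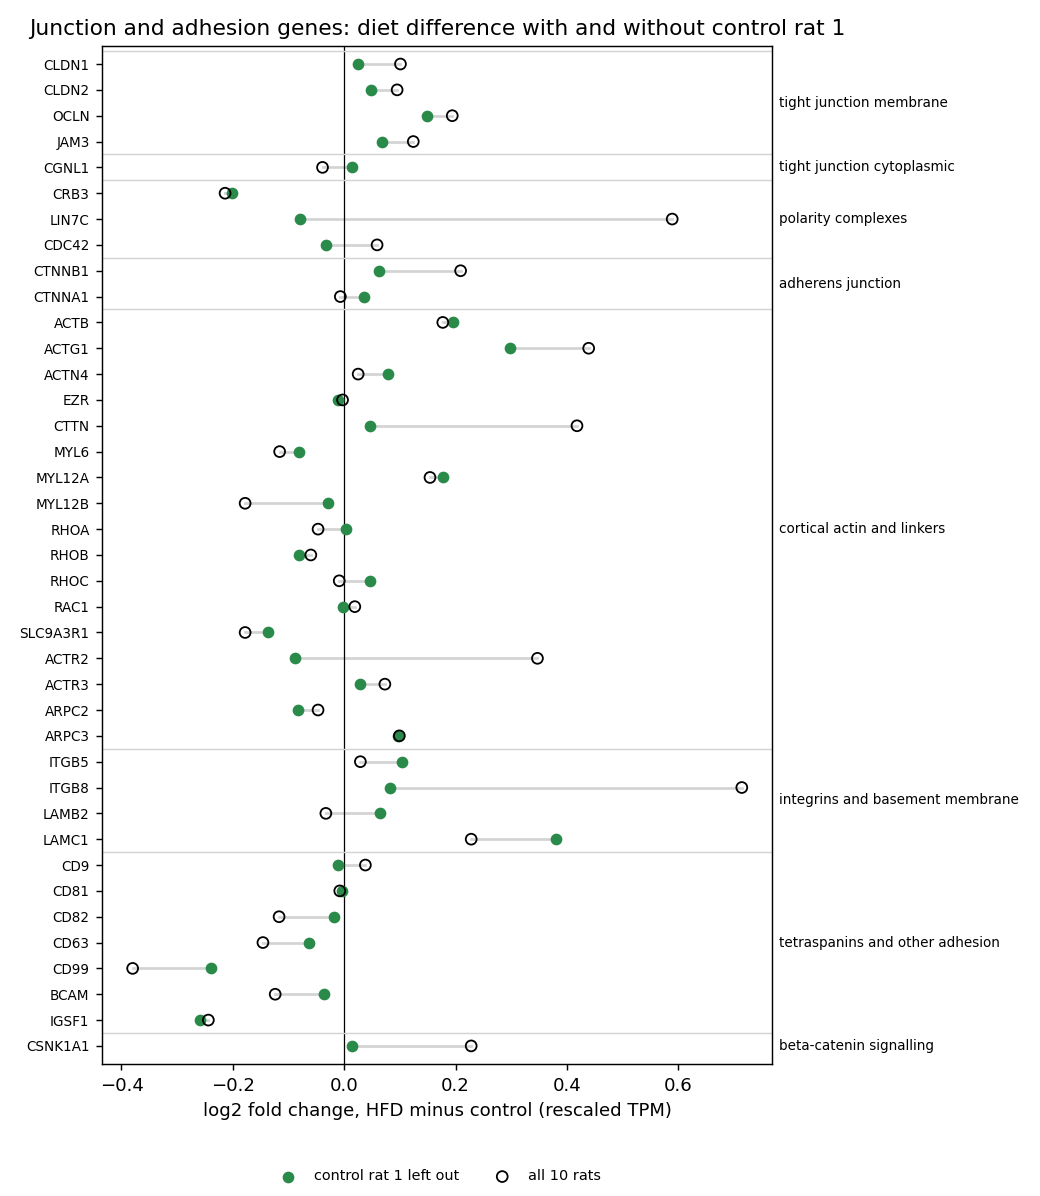
Log2 fold change from control to HFD in rescaled TPM of the 39 named junction and adhesion genes, grouped by list, for all 10 rats (open circles) and with control rat 1 left out (green), joined by grey lines. The change of ITGB8 moves from 0.71 to 0.082 and that of LIN7C from 0.59 to -0.08, while CRB3 stays at -0.21 and -0.20.

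Leaving out control rat 1 changed the sign of the log2 fold change for 10 of the 39 genes. A log2 fold change beyond 0.3 in either direction was found for 6 genes with this rat and for 1 without it, the laminin subunit LAMC1 (0.38, against 0.23 with it), which was named after its values were seen and stems from the table of genes that differed between the diets. Sign changes and changes beyond 0.3 were not counted over all genes, so that they are not shown to be particular to these lists. In control rat 1, 5 of the 39 genes were over 2-fold below the median of the other rats (12.8%) and 0 over 2-fold above it. Over all genes tested, 12.8% were over 2-fold below, and over the named genes 4.15%. The 5 genes, named after their values were seen, were ITGB8, CSNK1A1, LIN7C, a scaffold of the polarity complexes, CTTN, the actin-binding protein cortactin, and ACTR2, a subunit of the actin-nucleating Arp2/3 complex. LIN7C was at 8.04 in control rat 1 and at 73.7 to 87.8 in the other rats. ACTR2 was at 23.2 against 93.9 to 113, and CTTN at 16.9 against 57.4 to 73.6. The 4 junction genes of the first list were below the median of the other rats by 0.26 (CLDN2), 0.34 (OCLN), 0.37 (CLDN1) and 0.76 (CTNNB1) on the log2 scale. The part of this library in each value is given by the fits without it, and why it stands apart was not tested.

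**Figure D4:**
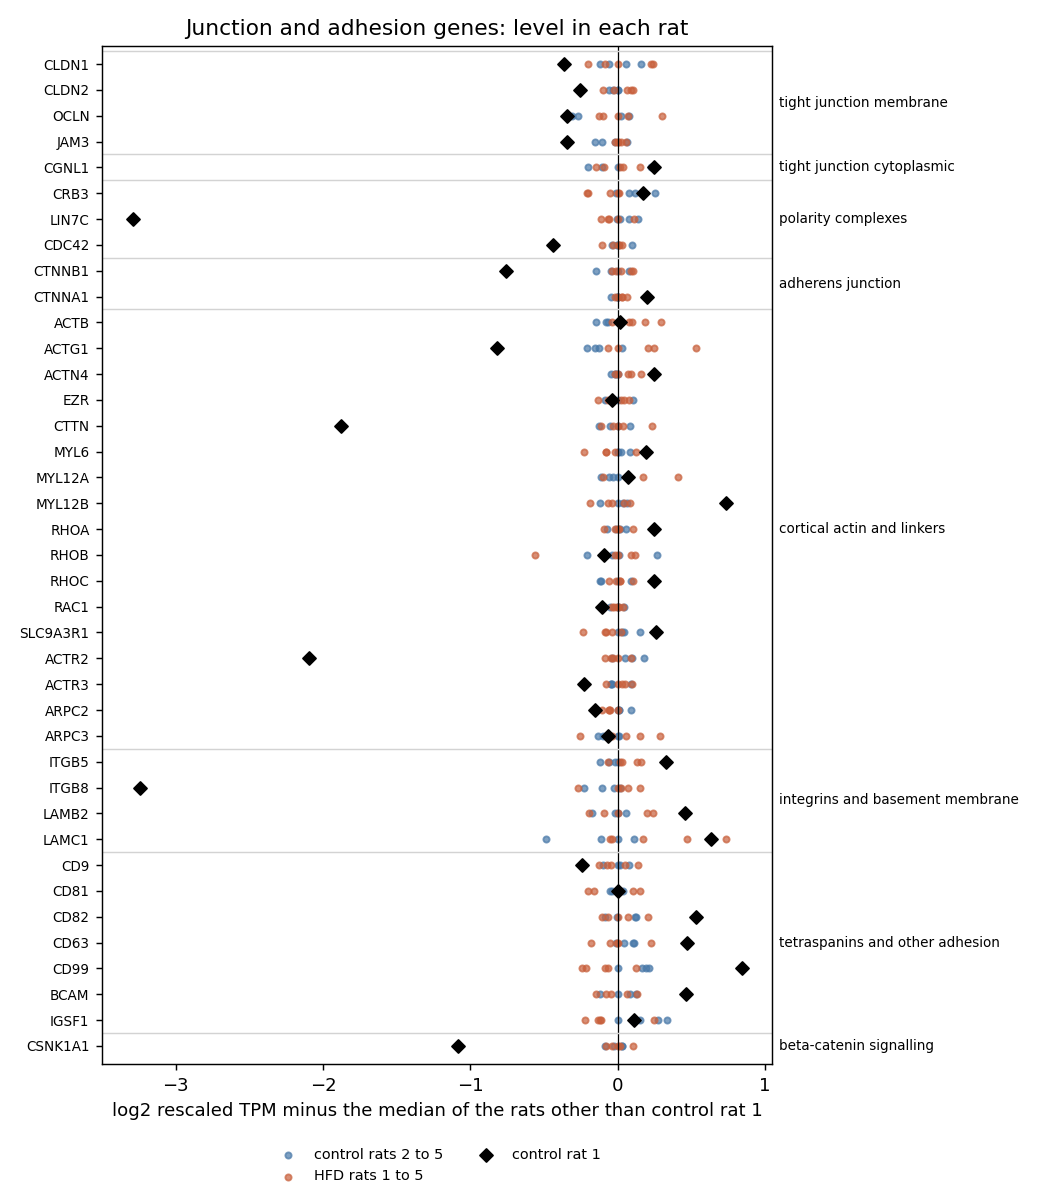
Log2 rescaled TPM of the 39 junction and adhesion genes in each rat, minus the median of the 9 rats other than control rat 1, with control rat 1 as black diamonds, the other control rats in blue and the HFD-fed rats in orange. Control rat 1 lies furthest below the others for LIN7C, ITGB8, ACTR2, CTTN and CSNK1A1 and above them for CD99. The mean of CRB3 is lower in HFD-fed rats with an overlap at the edge (adjusted p = 0.542 by limma). With TPM as deposited, the log2 fold change of CRB3 is -0.13 (unadjusted p = 0.282 by limma).

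Markers of other cells in the tissue could be named for few genes, so that their part in these values was not tested. For endothelium, 1 of 10 markers was named, PLVAP, at 66.5 ± 16.7 in control rats and 57.7 ± 6.25 in HFD-fed rats (SD, n = 5 each), with 95.7 in control rat 1. For mural cells, 2 of 7 were named, RGS5 and MYL9, with a summed level of 184 ± 7.19 and 216 ± 22.5 (SD, n = 5 each). This sum did not overlap between the diets, at 177 to 196 in control rats and 199 to 247 in HFD-fed rats. Taken singly, 3.4% of all genes and 7.25% of the named genes did not overlap, and no such share was formed for sums of 2 genes. Neither RGS5 nor MYL9 was without overlap on its own, and in control rat 1 the sum joins a low RGS5 (42.0) and a high MYL9 (134.6). The means of ACTB and ACTG1 were also higher in HFD-fed rats, and the part of mural cells in the actin values was not tested. The log2 fold change of MYL9, also singled out after its values were seen, was 0.18, and 0.34 without control rat 1 (unadjusted p = 0.0235, adjusted p = 0.356 by limma). RGS5 was at 42.0 in control rat 1 and at 107 to 112 in the other control rats. For stromal cells, 1 of 7 was named, DCN, with 161 ± 44.8 and 195 ± 24.95 (SD, n = 5 each). For macrophages, 1 of 8 was named, CD74, with 198 ± 28.1 and 216 ± 24.3 (SD, n = 5 each). The 3 haemoglobin genes, led by HBA-A1, summed to 5406 ± 1745 and 4391 ± 1133 (SD, n = 5 each). None of the 8 ependymal and neural markers was named. No named marker was at 0 in every rat. CTNNB1 and the actins are known to be expressed in many cell types, and the share of the epithelium in their values was not tested.

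Genes with the most similar pattern were searched among 1990 named genes with a mean of at least 10 rescaled TPM, by Pearson's r of log2 values over the 9 rats other than control rat 1. As the highest of many values of r, these are a description, and the values were not centred within each diet. CLDN2 was most like ELOVL7, ABHD2 (r = 0.837 each) and RGS5 (r = 0.832), and CLDN1 most like LRRC23 (r = 0.977), RNF11L1 (r = 0.902) and ANP32E (r = 0.885). OCLN was most like CAR2 (r = 0.91), RHOC (r = 0.907) and PON1 (r = 0.905). CAR2 encodes a carbonic anhydrase and had 1279 rescaled TPM in control and 1431 in HFD-fed rats. CTNNB1 was most like IFITM3 (r = 0.915), CD74 (r = 0.908) and SLC22A8 (r = 0.888). With control rat 1 included, r was 0.115 for CLDN1 with LRRC23 and 0.183 for OCLN with RHOC. For CTNNB1 it was then -0.482 with IFITM3, 0.431 with CD74 and -0.777 with SLC22A8. By contrast, r stayed high for the others. It was 0.893 for CLDN2 with ELOVL7, 0.872 with ABHD2 and 0.884 with RGS5. For CLDN1 it was 0.821 with RNF11L1 and 0.90 with ANP32E, and for OCLN 0.865 with CAR2 and 0.924 with PON1.

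The sequences before the start of 2 of the tight junction genes are shown because the E-box CAGGTG is the motif to which SNAI1 and ZEB1 bind, factors known to repress junction genes in epithelia. The motif was searched on both strands, where its other strand reads CACCTG, in the 250 bases before each gene's start in RefSeq (GRCr8, another build than that of the expression values). Matches are in capitals, and a match is not a bound site. The window of Cldn1 lies at chr11:87926126-87926375 on the + strand and that of Ocln at chr2:33441199-33441448 on the - strand.
Cldn1: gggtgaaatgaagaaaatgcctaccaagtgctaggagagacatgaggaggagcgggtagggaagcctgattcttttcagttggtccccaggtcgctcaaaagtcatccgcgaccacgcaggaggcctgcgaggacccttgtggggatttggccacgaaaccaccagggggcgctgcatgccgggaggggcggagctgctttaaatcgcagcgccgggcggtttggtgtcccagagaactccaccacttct
Ocln: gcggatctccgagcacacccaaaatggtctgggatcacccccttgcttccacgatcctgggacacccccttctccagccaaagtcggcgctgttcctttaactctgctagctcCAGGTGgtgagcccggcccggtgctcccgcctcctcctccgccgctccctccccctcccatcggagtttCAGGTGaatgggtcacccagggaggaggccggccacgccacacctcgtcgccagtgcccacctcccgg
The window of Ocln held 2 matches, starting 137 and 68 bases before the gene's start, and those of Cldn1 and Ctnnb1 held 0. Of the 39 named genes, 30 had a window in the table, and 7 of the 30 (23.3%) held the motif, against 15.9% of all 33469 windows. G and C made up 66.4% of the window of Ocln and 59.2% of that of Cldn1, against a median of 51.2% over all windows. OCLN and CLDN1 did not differ between the diets beyond the spread between rats, so that no difference in expression is tied to these letters.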

How the data were processed

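The authors aligned paired-end reads to Rnor_6.0 with STAR (2.7.2a per the labels; the study's methods name another version) and quantified them with RSEM (1.3.3). The deposited TPM and FPKM per Ensembl gene are rounded to 2 decimals. The deposited FPKM are a constant multiple of TPM within a rat and gave only the mean effective transcript length. The study's own test of differential expression ran on raw counts, not used here.

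For rescaling, the ratio of every gene to its mean over rats was formed for the 10653 genes above 1 TPM in all libraries, and the median of these ratios served as divisor for a library. Genes with a mean of at least 1 were tested with limma 3.58.1 (R 4.3.3; lmFit, then eBayes with trend) on log2(TPM + 0.1), with diet as the only term and Benjamini-Hochberg adjustment. Fold changes are on that scale. The step was also tried on simulated data, for which no result is given here. Exact two-sided permutation tests over all rats used the 252 splits of 10 rats, with a smallest p of 0.00794. Those without control rat 1 used the splits of the 9 remaining rats. Correlations used 100000 permutations within diets. Other steps used python 3.11.15, pandas 2.3.3 and scipy 1.17.1.

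Gene names came from the study's tables of transcribed and of differentially expressed genes, and 7 symbols with several identifiers were left out. The members and lists were chosen with earlier results of these data known. Named in the text are the members, list genes with an unadjusted p under 0.05 or without overlap between diets, the 2 most abundant genes of each list, the 3 genes most like each member, and the most abundant marker of each cell type. A few others (LIN7C, CTTN, ACTR2, LAMC1, PRLR, KL, AQP1, MYL9) were added after their values were seen. Fits without a rat kept the factors from all rats. Both diets share replicate numbers 1 to 5, and the labels give these no meaning. RSEM splits reads between near-identical genes, so the values of the actin genes are uncertain.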

Additional observations from a re-analysis of the deposited data

Results flagged for a closer look

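Each diet was searched for a highest or lowest rat whose distance to its neighbour was more than 0.71 of the range over the 5 rats. This held in 16 of 64 sets of values, with 15 of the 16 due to control rat 1. At about 1 in 20, independent sets would give 3.2. The sets share the same rats and include measures of the libraries by which this rat had already been set apart. The count is therefore a description and not a test. For this rat, CLDN2 was at 543 rescaled TPM against 625 to 650 in the other control rats, CDC42 at 219 against 289 to 317, CSNK1A1 at 43.6 against 87.2 to 94.5 and ITGB8 at 8.31 against 67.8 to 80.4. It was high for CTNNA1, at 86.0 against 72.7 to 75.04, for ITGB5, at 103.6 against 75.8 to 82.5, for CD63, at 1629 against 1164 to 1269, and for CD99, at 249.3 against 139 to 161. Of the cell markers, PLVAP was at 95.7 against 54.4 to 63.0, RGS5 at 42.0 against 107 to 112 and TTR at 522300 against 319400 to 330000. The scaling factor was 0.761 against 1.00 to 1.04, the mean effective transcript length 789 against 905 to 918 bases, the share of TTR 39.7% against 32.2% to 34.2%, and 1839 genes deviated more than 2-fold from the rest, where the other control rats had 140 to 173. CTNNB1 in control rat 1, with a ratio of 0.676, stayed under the limit. The remaining value of the 16 was IGSF1 in HFD-fed rat 5, at 74.4 against 53.7 to 57.9. The 64 sets covered part of the named genes and measures of the libraries, and not every gene of the lists. Outside these sets, the limit was also passed in control rat 1, with ratios of 0.894 for LIN7C, 0.824 for ACTR2 and 0.82 for CTTN. The ratio was 0.764 each for KL and MYL9 in this rat, and 0.756 for RHOB in HFD-fed rat 4. Further genes outside the sets are not given here.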

How the results depend on the processing

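CLDN1, CLDN2, OCLN and CTNNB1 kept a higher mean in HFD-fed rats and an adjusted p above 0.05 in all 20 alternatives, with log2 fold changes of 0.025 to 0.19, 0.048 to 0.18, 0.13 to 0.28 and 0.063 to 0.30. Only OCLN had an unadjusted p by limma under 0.05, with the replicate block (0.0298) and without control rat 2, where 9.24% and 9.06% of all genes had one. Leaving out 1 rat at a time gave 0.025 to 0.16 for CLDN1, 0.048 to 0.13 for CLDN2, 0.13 to 0.26 for OCLN and 0.063 to 0.27 for CTNNB1. Over all genes, 0 had an adjusted p under 0.05, but 1 without a filter on low values (ENSRNOG00000045684) and 3 with array weights (METRN, FLNA and ENSRNOG00000052365), none of them in the junction lists. Those with an unadjusted p under 0.05, 1036 (517 higher, 519 lower), were 624 with TPM as deposited (470 higher, 154 lower), 590 with a mean of at least 10, which tests fewer genes, 1854 with array weights and 786 to 1442 with 1 rat left out. With 1 rat left out, 6.43% to 11.8% of all genes had an unadjusted p under 0.05. Of the 39 junction and adhesion genes, 2 to 7 (5.13% to 17.9%) then had one, 2 without HFD-fed rat 4 and 3 without HFD-fed rat 2. Their median log2 fold change, 0.025, was 0.114 with TPM as deposited and 0.003 to 0.045 with 1 rat left out.

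Signs changed for genes without a difference between the diets. TPM as deposited gave 0.05 for CGNL1, 0.082 for CTNNA1, 0.081 for CD81 and 0.086 for EZR. Array weights gave 0.014 for CGNL1, 0.033 for CTNNA1, 0.006 for CD81 and -0.015 for CDC42. With 1 rat left out, the range was -0.099 to 0.014 for CGNL1, -0.026 to 0.035 for CTNNA1, -0.05 to 0.037 for CD81, -0.032 to 0.102 for CDC42, -0.025 to 0.027 for EZR and -0.008 to 0.104 for ITGB5. With TPM as deposited and control rat 1 left out together, CGNL1 was 0.019, CDC42 -0.027, CTNNA1 0.04 and CD81 0.001. Pearson's r turned to -0.437 for CLDN2 with CTNNB1 and to -0.25 for OCLN with CTNNB1 without control rat 1. The log2 difference of the ratio of CLDN2 to CLDN1 was then 0.022 and that of CTNNB1 to OCLN -0.086. The cause of these changes was not tested.

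For rats that share a number, the deviations from the diet means correlated at 0.117, -0.041, 0.01, 0.063 and 0.101. The numbers were therefore not treated as a pairing, and 4 of 10 rats correlated best with their own number. With the replicate block, 0 genes had an adjusted and 1129 an unadjusted p under 0.05. The block leaves differences of means as they are in this balanced design and changes only the p, which for OCLN was 0.109 without it and 0.0298 with it. Reads per library could not be recovered from TPM, so counting error is unknown.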
